A study of Mus musculus with 189 samples.

Results

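Ighm, Igkc, Cd79a, Cd79b, Cd74 and Ms4a1 are genes of the B cell, and reads of all of them were found among cells sorted as mast cells. These 6 genes, of 46078 gene rows, were chosen by their measured levels in these same cells, so their levels are given as a description, with no test. Read counts were obtained by RNA sequencing of single peritoneal cells of 4 C57BL/6 mice, all female. Both groups were live, lineage-negative and positive for c-Kit and for FcεRI, the high-affinity IgE receptor. The 94 mature mast cells had low integrin β7 and high side scatter. The 95 basophil-mast cell progenitors (BMCPs) were the cells with high integrin β7 whose side scatter was low. No genotype, transgene or treatment distinguished the groups. The cells are not assigned to mice in the labels, so each group was 1 pooled sample, and differences between mice cannot be told apart from differences between cells.

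Levels are in CPM, a gene's reads scaled to a fixed total of reads on endogenous genes in the same cell. Cells with at least 100000 endogenous reads were kept, which left 94 mature mast cells and 93 BMCPs. They held 561600 to 2152221 reads in mature mast cells and 344022 to 2091665 in BMCPs. In the BMCPs left out, number 6 had 3978 reads with 1 read of Ighm and none of the other 5 genes, and number 93 had 36972 reads with none of the 6. No molecular identifiers were used, so reads include PCR copies, and all intervals below (95%, exact Poisson for counts and Clopper-Pearson for shares) cover counting error only.

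The B cell receptor is a membrane immunoglobulin whose heavy and light chains are each assembled in the developing B cell by joining variable (V), diversity (D, heavy chain only) and joining (J) segments to a constant region. A naive B cell carries IgM and IgD made from the same heavy-chain V region, paired with either a kappa or a lambda light chain. The receptor signals through a dimer of CD79A and CD79B, and the cell presents the antigen it takes up on MHC class II molecules, which the invariant chain CD74 escorts through the cell. Mast cells instead bind IgE made by other cells, and store proteases such as carboxypeptidase A3, encoded by Cpa3.

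Cells were divided at 1000 CPM of Cpa3. No mature mast cell was under it, and 2 BMCPs were: number 46 at 112.7 CPM and number 80 at 160.4 CPM. The nearest cells above the limit were BMCP number 40 at 3729 CPM and BMCP number 55 at 11033 CPM. The other 185 cells, 94 mature mast cells and 91 BMCPs, are called Cpa3-positive. The 2 Cpa3-low wells went against their label on the other mast cell genes as well. Relative to the pooled Cpa3-positive cells, 12 mast cell genes stood at a median of 0.129% in number 46 and 0.216% in number 80, and at no more than 0.419% for any gene. Kit, the receptor gated on as c-Kit, was at 1.47 and 3.51 CPM, Fcer1a, the IgE-binding chain, at 3.43 and 5.85 CPM, and Ms4a2, the beta chain of the same receptor, had no read in either well. Itgb7, the integrin of the gate, was at 687 CPM in number 46 and 2.34 CPM in number 80. The Cpa3-low wells were not shallow, with 2040154 reads on 3549 genes in number 46 and 854251 reads on 2935 genes in number 80. Their ratios of endogenous to ERCC spike-in reads were 245.0 and 187.7, against a median of 567 in Cpa3-positive BMCPs.

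**Figure D1:**
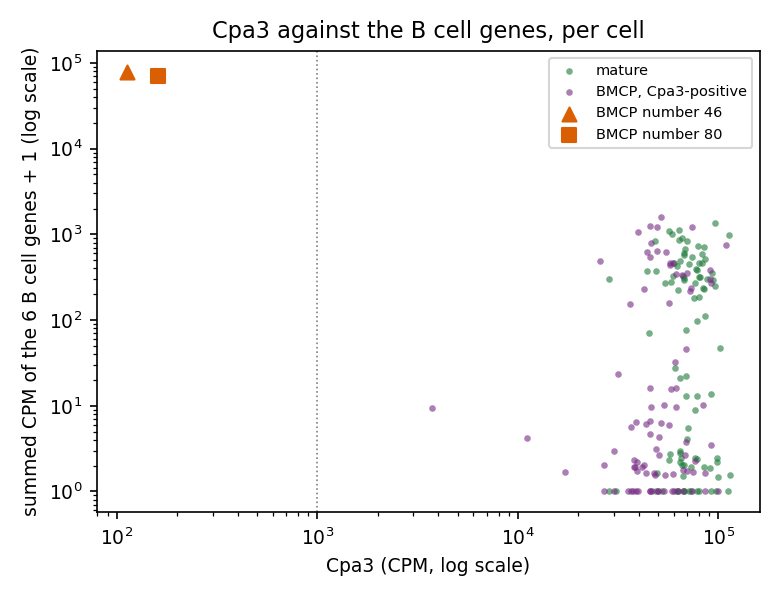
Each point is a kept cell, with its Cpa3 level on the x axis and the summed level of the 6 B cell genes plus 1 on the y axis, both in CPM on log scales; the dotted line marks 1000 CPM of Cpa3. BMCP numbers 46 and 80 stand alone at the upper left, at 79046 and 71053 CPM of B cell genes, while no Cpa3-positive cell exceeds 1576 CPM.

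Different immunoglobulin segments were counted in each Cpa3-low well. Reads across the joins between segments were not examined, so the counts do not show which segments were joined. The reference germline sequences of the leading segments are shown because the wells differed in them. The leading light-chain segments were of kappa in number 46 and of lambda in number 80. The sequences come from GENCODE M21 on GRCm38 and are not read from the cells. For V segments the last 60 bases are given, with the codon of the conserved cysteine in capitals. For J segments the annotated transcript is given, with the codons of its tryptophan or phenylalanine, glycine, any residue and glycine in capitals. For Ighj2 (48 bases) and Igkj2 (39 bases) that transcript is shorter than the gene interval stated with it. In BMCP number 46 the segments with most reads of their kind were Ighv1-9 (chr12:114583569-114584002, minus strand, 2861 reads), Ighd4-1 (chr12:113430528-113430538, minus, 58 reads) and Ighj3 (chr12:113429085-113429132, minus, 392 reads) of the heavy chain, with Igkv12-41 (chr6:69858420-69858884, minus, 14008 reads) and Igkj2 (chr6:70722916-70722958, plus, 1625 reads) of kappa.
Ighv1-9: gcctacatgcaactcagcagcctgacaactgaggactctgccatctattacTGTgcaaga
Ighd4-1: ctaactgggac
Ighj3: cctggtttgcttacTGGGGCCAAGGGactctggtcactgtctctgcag
Igkv12-41: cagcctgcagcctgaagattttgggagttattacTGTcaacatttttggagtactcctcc
Igkj2: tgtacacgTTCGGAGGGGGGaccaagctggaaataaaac

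In BMCP number 80 they were Ighv14-2 (chr12:113994469-113994898, minus, 2068 reads) and Ighj2 (chr12:113429468-113429567, minus, 445 reads), with Iglv1 (chr16:19085017-19085500, minus, 2643 reads) and Iglj1 (chr16:19063225-19063262, minus, 414 reads) of lambda. No D segment had a read in this well.
Ighv14-2: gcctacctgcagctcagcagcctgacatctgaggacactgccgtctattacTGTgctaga
Ighj2: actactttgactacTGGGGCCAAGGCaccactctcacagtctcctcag
Iglv1: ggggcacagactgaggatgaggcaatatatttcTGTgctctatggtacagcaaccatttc
Iglj1: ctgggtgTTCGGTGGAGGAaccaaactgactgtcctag
The other V segments in either well had at most 15 reads. The leading heavy-chain V and J segments thus differed between the wells, and the leading light-chain segments came from different loci.

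Ighm (ENSMUSG00000076617; chr12:113418558-113422730, minus strand) encodes the constant region of the IgM heavy chain. It was at 7839 CPM (15993 reads) in number 46 and 10071 CPM (8603 reads) in number 80. Ighd, the IgD constant region next to it, was at 8083 and 5724 CPM, so both wells held transcripts of both isotypes. Ighe, Ighg1, Ighg2b, Ighg2c, Ighg3 and Igha, the constant regions of switched antibodies, had no read in either well. Igkc (ENSMUSG00000076609; chr6:70726435-70726966, plus strand), the kappa constant region, was at 12124 CPM (24735 reads) in number 46 and had no read in number 80, where the limit of 3 reads is 3.51 CPM. Number 80 instead held Iglc1, a lambda constant region, at 4879 CPM, with 0 in number 46. Number 46 also held 1221 reads of Iglc3 and 830 of Iglc2, beside 169 of Iglj3 and none of any lambda V segment. These genes were not particular to number 46, since number 80 held 2443 reads of Iglc2, 711 of Iglc3 and 88 of Iglj3. Iglc2 and Iglc3 are near-identical copies, so the division of reads between them is uncertain. Igkc lies within a long noncoding RNA gene, Gm30211, annotated on the same strand.

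Cd79a (ENSMUSG00000003379; chr7:24897381-24902197, plus strand), the Igα chain, was at 4795 CPM (9783 reads) in number 46 and 6527 CPM (5576 reads) in number 80. Its partner Cd79b (ENSMUSG00000040592; chr11:106311341-106314762, minus strand), the Igβ chain, was at 2512 CPM (5124 reads) and 6856 CPM (5857 reads). Both chains of the signalling dimer were therefore high in both wells. Ms4a1 (ENSMUSG00000024673; chr19:11249675-11266241, minus strand), which encodes the surface protein CD20, was at 2011 CPM (4103 reads) and 3963 CPM (3385 reads). It lies within 4930526L06Rik, annotated on the opposite strand. Cd74 (ENSMUSG00000024610; chr18:60803848-60812652, plus strand) had the highest CPM of any gene in both wells, at 49765 CPM (101528 reads) and 43636 CPM (37276 reads). Genes of the MHC class II chains that CD74 escorts were also high: H2-Ab1 was at 21925 and 15785 CPM, H2-Aa at 11925 and 8084 CPM, and H2-Eb1 at 6658 and 6043 CPM.

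**Figure D2:**
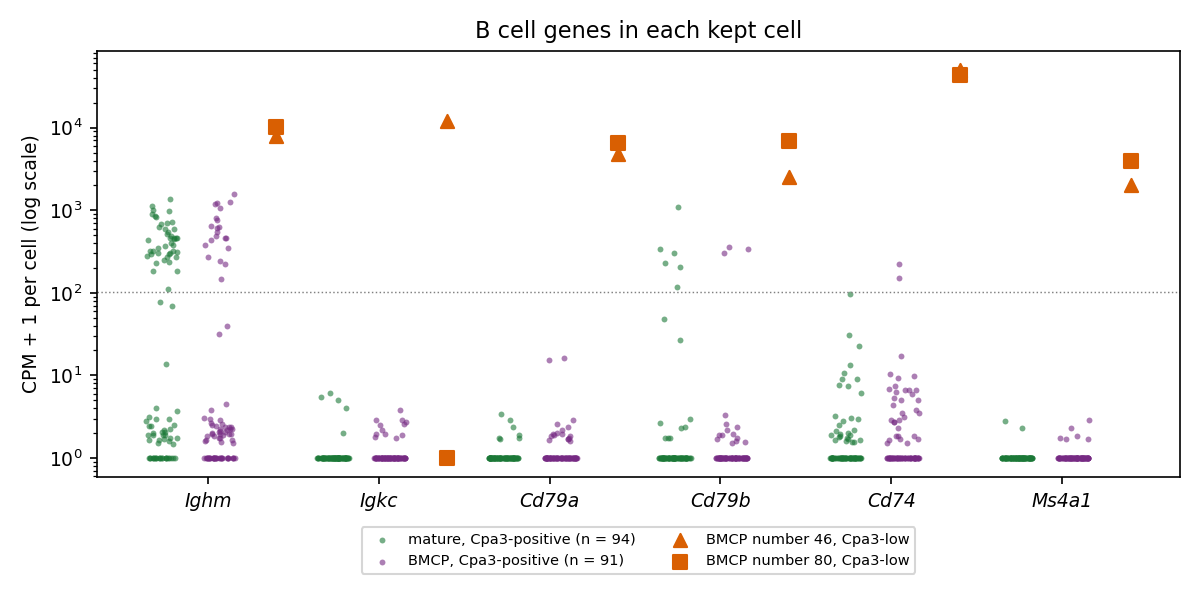
Each point is a kept cell, with the level of the gene plus 1 in CPM on a log y axis; green points are the 94 mature mast cells, purple points the 91 Cpa3-positive BMCPs, and orange symbols BMCP numbers 46 and 80, and the dotted line marks 100 CPM. Igkc, Cd79a and Ms4a1 stay under 16 CPM in every Cpa3-positive cell, while Ighm forms a cloud above 100 CPM in both groups.

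Over all 93 kept BMCPs, the 2 Cpa3-low wells held 57.5% of Ighm reads, 99.9% of Igkc, 99.6% of Cd79a, 89.5% of Cd79b, 99.6% of Cd74 and 99.9% of Ms4a1. All 6 genes thus had at least 50% of BMCP reads in those wells, against a background of 1.63% of the 9811 genes with at least 5 pooled CPM in BMCPs; the genes were chosen on this pattern, and nothing is read from it. Of the 6, 5 were at 100 CPM or more in both wells, and 3 of those 5 (Cd79a, Cd74 and Ms4a1) had under 5 pooled CPM in Cpa3-positive cells. Among all 347 genes at 100 CPM or more in both wells, 10.1% were that low in Cpa3-positive cells. Taking the 2 highest cells of a group whichever they were, 6 of 6 genes reached 50% in BMCPs (background 33.8%), and 3 of 6 did so in Cpa3-positive BMCPs (background 33.5%): Cd79a at 66.7%, Cd79b at 70.9% and Cd74 at 70.7%. In mature mast cells 5 of 6 did (background 20.2%), but Igkc, Cd79a and Ms4a1 rested there on 21, 10 and 3 reads in all, and only Ighm, at 14.96%, was spread over many cells. Each background covers only genes with at least 5 pooled CPM in its group. In mature mast cells and in Cpa3-positive BMCPs only Ighm and Cd79b met that limit, and of these only Cd79b reached 50%. The counts out of 6 are therefore not comparable with the backgrounds in these groups.

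The comparison between groups was made with and without the Cpa3-low wells. With all kept cells, mature mast cells had 228 CPM of Ighm (interval 225 to 231) and BMCPs 358 CPM (355 to 361). For Cd79b these pooled levels were 26.6 CPM (25.6 to 27.5) and 102.6 CPM (100.8 to 104.4). The log2 ratio of mature CPM + 1 over BMCP CPM + 1 was -0.65 for Ighm and -1.91 for Cd79b, and between -5.96 for Ms4a1 and -8.42 for Cd74 for the other 4. Of the 6 genes, 5 were at least 2-fold lower in mature mast cells (background 19.2% of 10556 genes) and 0 were 2-fold higher (background 9.90%). The median over all genes was -0.25. When libraries were scaled to ERCC reads instead, the ratio of Ighm turned to 0.26 with the wells kept, while the median over all genes moved to 0.63, so Ighm was below the median under both scalings. Restricted to Cpa3-positive cells, the BMCP levels were 156 CPM for Ighm and 10.99 CPM for Cd79b, and their ratios became 0.54 and 1.20, against a median over all genes of -0.24, so both changed sign while the other 4 genes stayed below 0. Under ERCC scaling these became 1.42 and 2.03, with the median at 0.61. The other 4 genes were then under 5 CPM in both groups: Igkc had 0.177 CPM in the mature group and 0.189 CPM in BMCPs, Cd79a 0.0842 and 0.463 CPM, Cd74 2.41 and 4.42 CPM, and Ms4a1 0.0252 and 0.0600 CPM. Of the 2 genes above 5 CPM, 1 (Cd79b) was at least 2-fold higher in mature mast cells (background 9.83% of 10478 genes) and 0 were 2-fold lower (background 18.2%). That call rested on 1 cell, since without mature mast cell number 21 the ratio of Cd79b was 0.33. With 1 pooled sample a group, no test of these differences was possible.

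In Cpa3-positive cells, Ighm alone of the 6 genes was common, and it was high or close to absent. It reached 100 CPM in 43 of 94 mature mast cells (45.7%, interval 35.4 to 56.3) and in 21 of 91 BMCPs (23.1%, interval 14.9 to 33.1). In those cells it lay between 111 and 1351 CPM with a median of 432 CPM in mature mast cells, and between 145 and 1566 CPM with a median of 544 CPM in BMCPs. The highest cells were mature mast cell number 43 and BMCP number 16. Every one of them was below the 7839 CPM of the lower Cpa3-low well. Only 3 mature mast cells and 2 BMCPs fell between 10 and 100 CPM, and the remaining 116 cells had at most 5 reads, 56 of them none. The 64 cells at 100 CPM or more therefore held 99.2% of the Ighm reads of Cpa3-positive cells. Among 396 genes of similar pooled level (154 to 240 CPM in Cpa3-positive cells) the median gene reached 100 CPM in 86 cells, and 20 genes (5.05%) did so in fewer than the 64 of Ighm. The median gene of that window had 16 cells between 10 and 100 CPM, against 5 for Ighm. Depth was similar on both sides, at a median of 1221994 reads in the 64 cells and 1322306 reads in the other 121. After every cell was thinned to 100000 reads, 42 of those 43 mature mast cells and all 21 BMCPs were still at 100 CPM or more, and no other cell was.

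**Figure D3:**
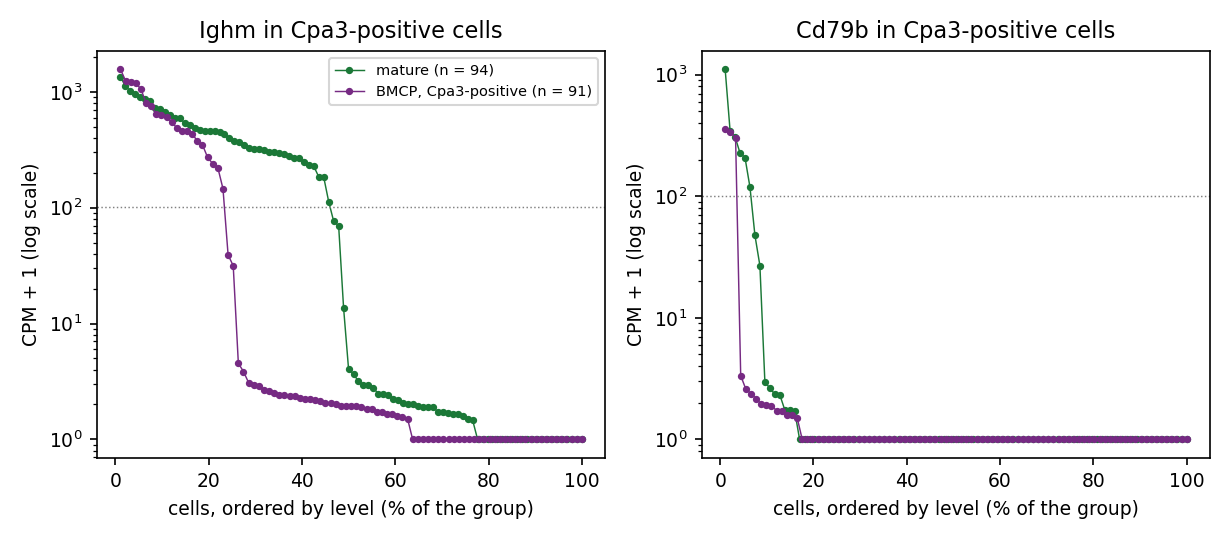
Cpa3-positive cells of each group are ordered from highest to lowest level along the x axis, in percent of the group, with CPM plus 1 of Ighm (left) and Cd79b (right) on a log y axis and a dotted line at 100 CPM. Both Ighm curves drop steeply after a plateau, at 45.7% of the 94 mature mast cells and 23.1% of the 91 BMCPs, and the Cd79b curves drop within the first 10% of cells.

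The rest of the 6 genes, and Ighd, rarely or never reached 100 CPM in these 64 cells. Igkc, Cd79a, Cd74, Ms4a1 and Ighd reached 100 CPM in 0 of the 64, and Cd79b in 2: mature mast cell number 20, with 632 CPM of Ighm and 207 CPM of Cd79b, and mature mast cell number 52, with 452 and 118 CPM. No Cpa3-positive cell at all reached it for Igkc, Cd79a, Ms4a1 or Ighd, so their counts cannot show whether they accompany Ighm. Among cells with Ighm under 100 CPM, Cd79b reached it in 4 of 51 mature mast cells and 3 of 70 BMCPs, and Cd74 in 0 of 51 and 2 of 70. Segment reads were sought in 382 annotated V, D and J rows, which held 4203 reads in the 185 Cpa3-positive cells, 7 of them on J or D segments. At least 1 such read was present in 19 of 64 cells with Ighm at 100 CPM or more (29.7%, interval 18.9 to 42.4) and in 40 of the 121 others (33.1%, interval 24.8 to 42.2). At least 10 reads were present in 5 (7.81%, interval 2.59 to 17.3) and 21 (17.4%, interval 11.1 to 25.3), a limit chosen after the data were seen. V-segment reads were thus not more frequent in the cells with Ighm. The gene with most of them was Ighv1-23, with 1398 reads in 23 cells. Some reads lay on leading segments of the Cpa3-low wells: Igkv12-41 had 32 reads in 13 cells, Ighv14-2 6 reads in 6 cells and Iglv1 4 reads in 4 cells. All 7 J or D reads were on J segments that also had reads in those wells. The counts at 1 read or more include such cells. BMCP number 53 had the most segment reads of any Cpa3-positive cell, at 961, including all 785 reads of Ighv6-6 and 176 of Ighv1-23. This cell had 1244 CPM of Ighm, 45406 CPM of Cpa3 and no read of Igkc, Cd79a, Cd79b, Cd74 or Ms4a1. Other V segments were also read in 1 cell only, with at most 188 reads each.

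The shares of BMCPs with 3 protease genes and 1 receptor gene at 100 CPM or more were set side by side for cells with and without Ighm, and each pair of intervals overlapped. Differences between the shares were not tested. Within Cpa3-positive BMCPs, Gzmb, which encodes granzyme B, reached 100 CPM in 11 of 21 cells with Ighm (52.4%, interval 29.8 to 74.3) and 49 of 70 others (interval 57.9% to 80.4%). Mcpt4, a chymase of mature granules, did so in 10 of 21 (47.6%, interval 25.7 to 70.2) and 28 of 70 (interval 28.5% to 52.4%), and Mcpt8, a protease of basophils, in 9 of 21 and 30 of 70 (42.9% of each). Mrgprb1, a gene of the Mas-related receptors, did so in 12 of 21 (57.1%, interval 34.02 to 78.2) and 30 of 70 (42.9%, interval 31.1 to 55.3). The 5 genes whose levels ranked most like Ighm over the 185 cells, among 7172 genes at 10 CPM or more in at least 10% of cells, were Elovl5, Tmem206, Txndc15, Ephx2 and Tbc1d19, with Spearman coefficients of 0.25 to 0.28. All 185 points share the same sequencing lane, and coefficients this low in sparse counts are given as a description only.

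Cd79b was the second of the 6 genes in Cpa3-positive cells, in few of them. It reached 100 CPM in 6 of 94 mature mast cells (6.38%, interval 2.38 to 13.4) and 3 of 91 BMCPs (3.30%, interval 0.685 to 9.33), which are intervals that overlap. The mature mast cells were number 21 at 1107 CPM, number 59 at 342, number 61 at 306, number 30 at 225, number 20 at 207 and number 52 at 118 CPM. The BMCPs were number 69 at 354 CPM, number 8 at 336 and number 87 at 300 CPM. Mature mast cell number 21 alone held 1508 of the 3157 mature reads. Cd79a, without which the Igβ chain lacks its partner, had no read in any of these 9 cells, and neither had Ms4a1. A gene of the same pooled level typically showed as few cells: over 1340 genes between 15.1 and 23.6 CPM the median was 11 cells at 100 CPM or more, against 9 for Cd79b, and 26.3% had fewer. The genes ranking most like Cd79b were Reep4, C2cd3, Arid1b, 5530601H04Rik and Apool, with coefficients of 0.25 to 0.30 over 185 cells.

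Cd74 reached 100 CPM in 2 Cpa3-positive cells, BMCP number 75 at 225 CPM and BMCP number 23 at 151 CPM, and came near in mature mast cell number 1 at 94.8 CPM. H2-Aa, H2-Ab1 and H2-Eb1 had no read in these 3 cells. The reverse was also seen. H2-Ab1 reached 100 CPM in 6 Cpa3-positive cells, from 202 CPM to 7439 CPM in BMCP number 55, in which Cd74 was between 0 and 2.12 CPM and H2-Eb1 had no read. Cd79a reached at most 15.2 CPM (16 reads, BMCP number 13) and 14.1 CPM (20 reads, BMCP number 17), without any other of the 6 genes above 1 CPM. Igkc had 43 reads over 17 Cpa3-positive cells, with at most 5.07 CPM, and Ms4a1 had 10 reads over 8 cells, with at most 1.85 CPM. For these, and for Cd79a, 0 of 185 cells at 100 CPM or more has a Clopper-Pearson upper bound of 1.97%, and the limit of 3 cells is 1.62%. Counting all 6 genes, 112 Cpa3-positive cells had none at 100 CPM or more, 71 had 1 and 2 had a pair (Ighm with Cd79b), and no cell had more.

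The low reads of Igkc, Cd74 and Ms4a1 outside the Cpa3-low wells followed the numbers in the cell titles, a pattern chosen after the values were seen. Titles run from 1 to 94 for mature mast cells and from 1 to 95 for BMCPs, and the labels give no well positions. Numbers were divided into runs of 6, restarting after 47 and 48. A set of 35 Cpa3-positive cells (18.9% of 185) was taken. It comprised the cells in the same run as BMCP number 46 or 80 in either group. BMCPs at the same place in another run were added only on the same side of the restart after 48 as the well in question. These 35 cells held 41 of 43 Igkc reads (95.3%) and 7 of 10 Ms4a1 reads. In the 180 cells under 20 CPM of Cd74 they held 213 of 242 Cd74 reads (88.02%). That limit left out only cells outside the 35. These were mature mast cells number 1, 59 and 60 (131, 31 and 33 reads) and BMCPs number 23 and 75 (202 and 163 reads). All Cpa3-positive cells together had 802 Cd74 reads, so the 88.02% holds only under the limit. Reads of Igkc, which only number 46 contained, lay in the run or place of number 46 (29 and 11 reads) and hardly in those of number 80 (0 and 1 reads). Iglc1, which only number 80 contained, had 8 of 9 reads (88.9%) in the 35 cells, all of them in the run or place of number 80. For Cd79a the share was 34.4% of 64 reads, since BMCP numbers 13 and 17 held 36. Per the labels' protocols, libraries carried indices of a pair of kits and were pooled for a single lane. The source of these reads was not tested. The 35 cells held 13 of the 64 cells with Ighm at 100 CPM or more (20.3%), 0 of the 9 with Cd79b and 0 of the 2 with Cd74.

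**Figure D4:**
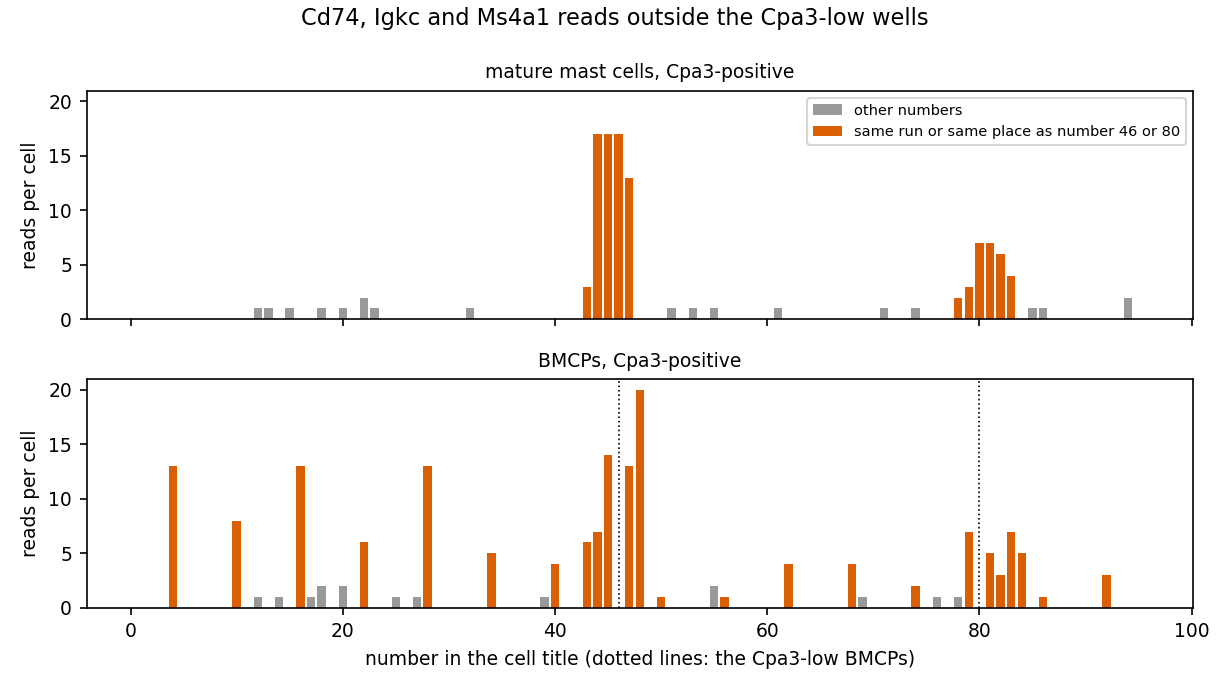
Bars give the summed reads of Cd74, Igkc and Ms4a1 in each Cpa3-positive cell under 20 CPM of Cd74, by the number in the cell title (x axis), for mature mast cells (top) and BMCPs (bottom); dotted lines mark BMCP numbers 46 and 80. Orange bars reach 20 reads, and grey bars at most 2. Orange marks the 35 cells in the same run of 6 as those wells, or BMCPs at the same place in another run on the same side of the restart after 48.

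Genes outside the set were counted in the Cpa3-low wells by list. Of 20 other B cell genes, 12 were at 100 CPM or more in number 46 and 9 in number 80, with 7 in both. Fcmr, the IgM Fc receptor, was at 2809 and 4478 CPM, Ly6d, a surface marker of the lineage, at 1491 and 2987 CPM, and Fcer2a, the low-affinity IgE receptor CD23, at 1569 and 3989 CPM. Cd22, an inhibitory receptor, was at 1185 CPM in number 46 and 3.51 CPM in number 80, whereas Pou2af1, a coactivator of immunoglobulin genes, was at 0 and 1452 CPM. Pax5 and Ebf1, transcription factors that specify the lineage, were at most at 12.9 CPM. Some genes of this list are not restricted to B cells in these data: 6 of the 20 had at least 5 pooled CPM in Cpa3-positive cells (Blnk, Cd72, Bank1, Cd37, Ralgps2 and Btk), and their summed level there ran from 0.535 to 3317 CPM per cell, against 14184 and 19007 CPM in the wells. Of 9 MHC class II genes, 8 were at 100 CPM or more in each well and 7 in both. Ccr7, a homing receptor counted in the dendritic cell list, was at 5904 and 741 CPM, and no other gene of that list reached 10 CPM.

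From the lists of other B cell stages, only Mzb1 reached 10 CPM in the wells. Of 7 plasma cell genes, Mzb1, a chaperone of immunoglobulin assembly, was at 748 and 586 CPM, while Jchain, Sdc1, Prdm1, Irf4 and Tnfrsf17 had no read. Xbp1 was at 0 and 2.34 CPM, against 194 pooled CPM in Cpa3-positive cells. Of 8 genes listed for B-1 cells, an innate-like class that is frequent in the peritoneum, 0 reached 10 CPM, and Cd5, Spn and Itgam had no read. The surrogate light chain and recombination genes (Vpreb1, Vpreb2, Igll1, Rag1, Rag2 and Dntt) had no read. A single cell often shows no read of a gene it expresses, so these absences are values of 2 cells only. No gene of the macrophage, T cell, natural killer cell, innate lymphoid or eosinophil lists reached 10 CPM.

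**Figure D5:**
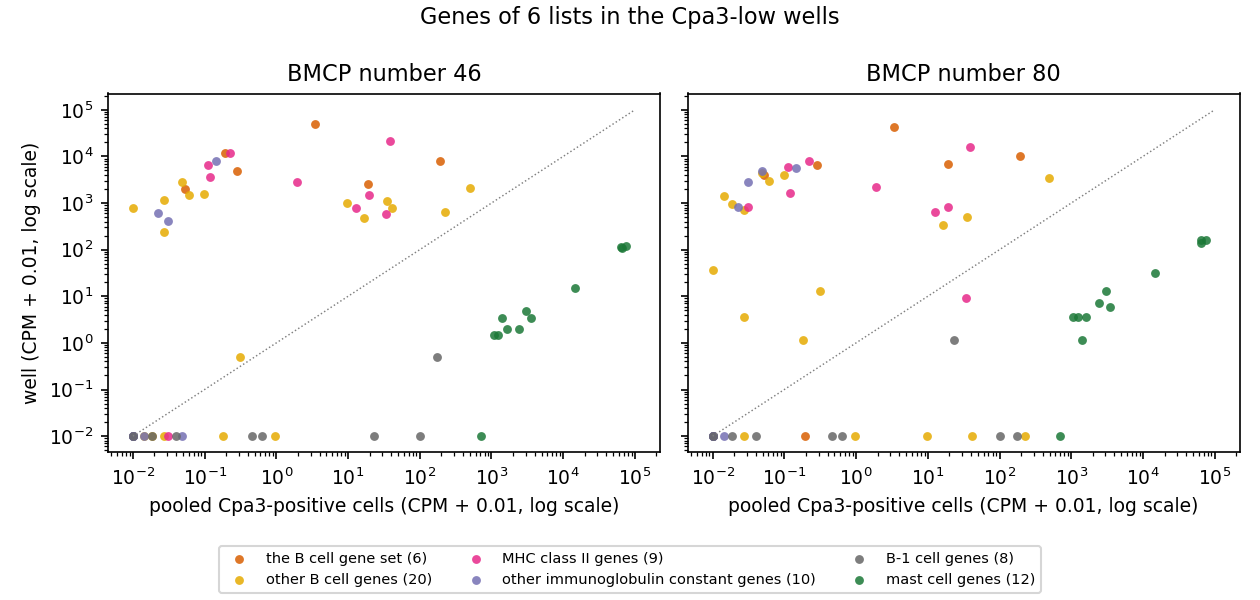
Each point is a gene of 6 lists, with its pooled level in the 185 Cpa3-positive cells on the x axis and its level in BMCP number 46 (left) or number 80 (right) on the y axis, both in CPM plus 0.01 on log scales; the dotted line marks equal levels. The 12 mast cell genes lie far below the line in both wells, at no more than 0.419% of the pooled level. Apart from the B-1 cell list, the B cell and MHC class II genes detected in the wells lie above it, except H2-DMb1 in number 80 at 9.36 CPM. The B-1 cell genes with a read, Cd9 in number 46 (0.49 CPM) and Plscr1 in number 80 (1.17 CPM), lie below the line.

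The promoter of Cd79a, which stood at 4795 and 6527 CPM in the Cpa3-low wells and at no more than 15.2 CPM elsewhere, is shown for the letters of factors known from B cell genes. RefSeq promoter windows matched 1 of the 6 genes, Cd79a (GRCm38.p6, chr7:24897247-24897546, plus strand). Capitals mark the E-box CAGGTG, 154 bases before the start site, and the ETS-type motif CAGGAAGT, 56 bases before it. The start site of this window lies 116 bases downstream of the gene start given above from GENCODE, so the ETS-type motif falls inside the gene as GENCODE annotates it.
Cd79a: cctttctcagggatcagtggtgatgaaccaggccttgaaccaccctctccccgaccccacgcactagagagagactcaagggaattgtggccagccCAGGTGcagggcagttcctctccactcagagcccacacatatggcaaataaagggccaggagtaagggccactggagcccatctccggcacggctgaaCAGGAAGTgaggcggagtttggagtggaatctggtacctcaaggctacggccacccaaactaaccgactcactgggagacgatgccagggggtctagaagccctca
Searched on both strands, CAGGTG occurred in 20.3% and CAGGAAGT in 3.34% of 32544 promoter windows of the same length. The matches are of letters only, and binding was not measured.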

How the data were processed

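Raw read counts per gene were deposited in 1 table by the authors, with a column for each cell; per the submitters' processing notes, GSNAP, HTSeq (0.5.3p3) and mm10 were used, while the annotation and strand setting are not given in the sources used here. Per the labels' protocols, poly(A) RNA was amplified by 23 PCR cycles and read as 50 base single-end reads. Symbols and coordinates came from GENCODE M21 on GRCm38, which matched 45143 of 46078 gene rows. ERCC and summary rows stayed out of totals; of all reads, 3.11% were ambiguous, 14.4% without feature and 14.1% not aligned. CPM were computed per cell, and pooled CPM from summed counts. Doublets were not called. Members and gene lists were chosen with earlier results of these data known. Named genes were the 6 members, the leading genes of each Cpa3-low cell, the 5 genes ranking most like Ighm and Cd79b, and list genes reaching 10 CPM in a Cpa3-low cell or 5 pooled CPM; names outside it (BMCP number 53's Ighv6-6, single cells, list genes without reads) were chosen after their values were seen. Alternatives changed the limits on Cpa3, depth and CPM, the scaling, the pseudocount of 1 CPM and the cells included. Python 3.11.15, pandas 2.3.3 and scipy 1.17.1 were used, and the steps were tested on simulated data.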

Additional observations from a re-analysis of the deposited data

How the results depend on the processing

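The count of 2 Cpa3-low cells was also found at Cpa3 limits of 500 and 2000 CPM and with at least 500000 reads per cell, and became 3 at 10000 CPM. Under ERCC scaling the log2 ratio of Ighm turned to 0.26, and without the Cpa3-low cells those of Ighm and Cd79b turned to 0.54 and 1.20. From there, in comparisons added after the data were seen, the ratios of Ighm and Cd79b were 0.45 and 0.33 without the mature mast cell with most of their reads, 0.74 and 1.88 without such a BMCP, 1.42 and 2.03 under ERCC scaling, and 0.74 and 1.40 with 7 abundant mast cell genes left out of totals. The ratio of Cd79b was -0.996 when BMCP number 80 was left out and -2.78 when mature mast cell number 21 was, and without BMCP number 46 those of Ighm and Igkc were -0.00106 and -0.0129. Cpa3-positive cells with any of the 6 genes numbered 73 at 100 CPM and 9 at 1000 CPM. The number of genes with at least 50% of reads in their 2 highest BMCPs went from 6 to 3 without the Cpa3-low wells. Cells with Ighm and segment reads went from 19 to 5 when 10 reads were asked for. Of 155 alternative values, 91 stayed within the tolerance set (0.05 in log2 ratios, 1.5 times in counts, 1 point in shares), 53 moved beyond it and 11 changed sign. No paired analysis was possible because each group was 1 pooled sample. With 2 Cpa3-low cells and no cell assigned to a mouse, nothing is shown about how often such wells occur.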
